A study of Mus musculus with 12 samples.

Results

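The 7 genes described here encode mechanosensitive channels and channel subunits: Piezo1, Piezo2, Pkd1, Pkd2, Trpc1, Tmem63a and Tmem63b. They were named as genes of this class, by a rule that uses no measured value but was written with earlier results of these data known, and 7 of 7 were listed among the 13233 genes of the normalized RNA-Seq table. RNA was measured in hernia-associated fibroblasts (HAFs), primary fibroblasts grown from the lower abdominal muscle (LAM) of Arom hum mice, which are FVB/N mice carrying a human aromatase gene (CYP19A1) on a bacterial artificial chromosome. Aromatase converts testosterone to estradiol (E2). Cells of each group carried the transgene, had been passaged once and starved of serum overnight, and were held for 48 h in medium without phenol red with little charcoal-stripped serum. The 4 groups held 3 samples each: a vehicle group that received only the solvents, ethanol and DMSO; a group given E2 at 10 nM; a group given both E2 and fulvestrant (at 100 nM), called E2 plus fulvestrant; and a group given fulvestrant alone. Fulvestrant or DMSO went on 3 h before E2 or ethanol. Fulvestrant is an estrogen receptor antagonist that also leads to loss of the receptor protein.

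PIEZO1 and PIEZO2 are large cation channels that open when the membrane is stretched and let calcium enter the cell. PIEZO1 is the form found widely in fibroblasts, endothelium and blood cells, and PIEZO2 is best known for touch and stretch sensing by sensory neurons and Merkel cells. Polycystin-1 (Pkd1) and polycystin-2 (Pkd2) form a receptor and channel complex of the primary cilium. TRPC1 is a subunit of channels linked to stretch and to store-operated calcium entry, and TMEM63A and TMEM63B are mechanically gated and osmotically gated channels related to the OSCA channels of plants.

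All 8 fibroblast markers examined were listed (Pdgfra, Pdgfrb, Col1a1, Col1a2, Dcn, Lum, Thy1 and Esr1), and none of 7 muscle, 3 adipocyte or 4 epithelial markers were. The table holds genes with 10 or more reads in all samples, and a gene outside it may still have been expressed. Of other cell types, 1 of 4 endothelial markers (Tek, 58.4 to 277 normalized counts), 2 of 5 macrophage and leukocyte markers (Cd68 and Cd14) and 2 of 4 pericyte markers (Cspg4 and Mcam) were listed. Each library held between 18827792 and 44040507 reads on the genes of the table. Samples of the same replicate number resembled each other across groups, so values are given in the order of replicates 1, 2 and 3 and tests compared samples within a number. Nothing states whether the replicates were separate cultures or animals, and p-values then measure only the spread between these samples.

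RefSeq promoters were matched for 6 of the 7 members, all but Piezo2. GGTCA, one arm of the element that estrogen receptors bind, was searched with its reverse complement TGACC in the 250 bases upstream of each start. It occurred in Piezo1 and in Pkd2 and in 35.2% of 32851 promoters. These upstream sequences are shown because they are the members with a match, and only the first belongs to a gene whose RNA passed the test below. GGTCA or TGACC is in capitals, and the sequences are from RefSeq (GRCm38.p6), at chr8:122551330-122551579 on the minus strand for Piezo1 and at chr5:104459207-104459456 on the plus strand for Pkd2.
Piezo1: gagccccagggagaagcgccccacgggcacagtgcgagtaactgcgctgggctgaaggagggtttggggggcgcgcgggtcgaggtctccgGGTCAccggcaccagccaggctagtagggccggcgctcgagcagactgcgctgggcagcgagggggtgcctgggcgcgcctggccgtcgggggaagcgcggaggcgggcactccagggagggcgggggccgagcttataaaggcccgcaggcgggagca
Pkd2: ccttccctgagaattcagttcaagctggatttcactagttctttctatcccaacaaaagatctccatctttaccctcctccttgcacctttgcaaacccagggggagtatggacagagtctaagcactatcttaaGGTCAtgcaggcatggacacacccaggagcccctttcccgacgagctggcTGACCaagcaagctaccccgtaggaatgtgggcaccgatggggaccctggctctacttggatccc
The match in Piezo1 began 159 bases before the start, and those in Pkd2 began 115 and 65 bases before it. The whole element, which is GGTCA followed by any 3 bases and TGACC and so overlaps each arm, was in none of the 6 member sequences and in 0.0639% of all promoters. The Piezo1 sequence held 74.0% G and C with 26 CpG dinucleotides and also TATAAA, a motif present in 12.4% of promoters. The Tmem63b sequence held 75.6% G and C with 31 CpG, that of Tmem63a 62.0% with 23 and that of Pkd2 52.8% with 4, against medians of 52.4% and 6 over all promoters. A match of letters describes the sequence and is not evidence of binding.

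The genes lie on several chromosomes of GRCm38 (mm10). Piezo1 (ENSMUSG00000014444) spans chromosome 8 from 122481698 to 122551329 on the minus strand, and Piezo2 (ENSMUSG00000041482) spans chromosome 18 from 63010213 to 63387183 on the minus strand. Pkd1 (ENSMUSG00000032855) spans chromosome 17 from 24549834 to 24596508 on the plus strand, and Pkd2 (ENSMUSG00000034462) spans chromosome 5 from 104459450 to 104505819 on the plus strand. Trpc1 (ENSMUSG00000032839) lies on chromosome 9 from 95705082 to 95750375 on the minus strand. Tmem63a (ENSMUSG00000026519) lies on chromosome 1 from 180942344 to 180975112 on the plus strand, and Tmem63b (ENSMUSG00000036026) on chromosome 17 from 45660171 to 45686905 on the minus strand. Exons of Piezo1 overlap those of Ctu2 on the opposite strand over 24.6% of their length. The reads were counted by strand, and no member shared exon sequence with a gene on its own strand.

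Levels can be compared between genes only per length, as normalized counts per kb of exon. Piezo1 had the highest mean of the members on that scale, 1565 ± 309 (SD, n = 12 samples), above 94.3% of 13154 genes with a length. Pkd2 followed at 1184 ± 184, Pkd1 at 617 ± 147, Tmem63a at 525 ± 54.3, Tmem63b at 311 ± 31.0, Piezo2 at 147 ± 94.1 and Trpc1 at 29.0 ± 18.6. Neighbours in this order were apart in 12 of 12 samples, except that Piezo1 was above Pkd2 in 9 and Pkd1 above Tmem63a in 8. Piezo2 had the largest ratio of its highest to its lowest sample, 5.07 (56.7 to 288), against 4.52 for Trpc1, and the ratio of Tmem63b to Piezo2 within a sample went down to 1.02. Trpc1, with 76 to 446 reads per sample, was the member with the fewest reads.

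**Figure D1:**
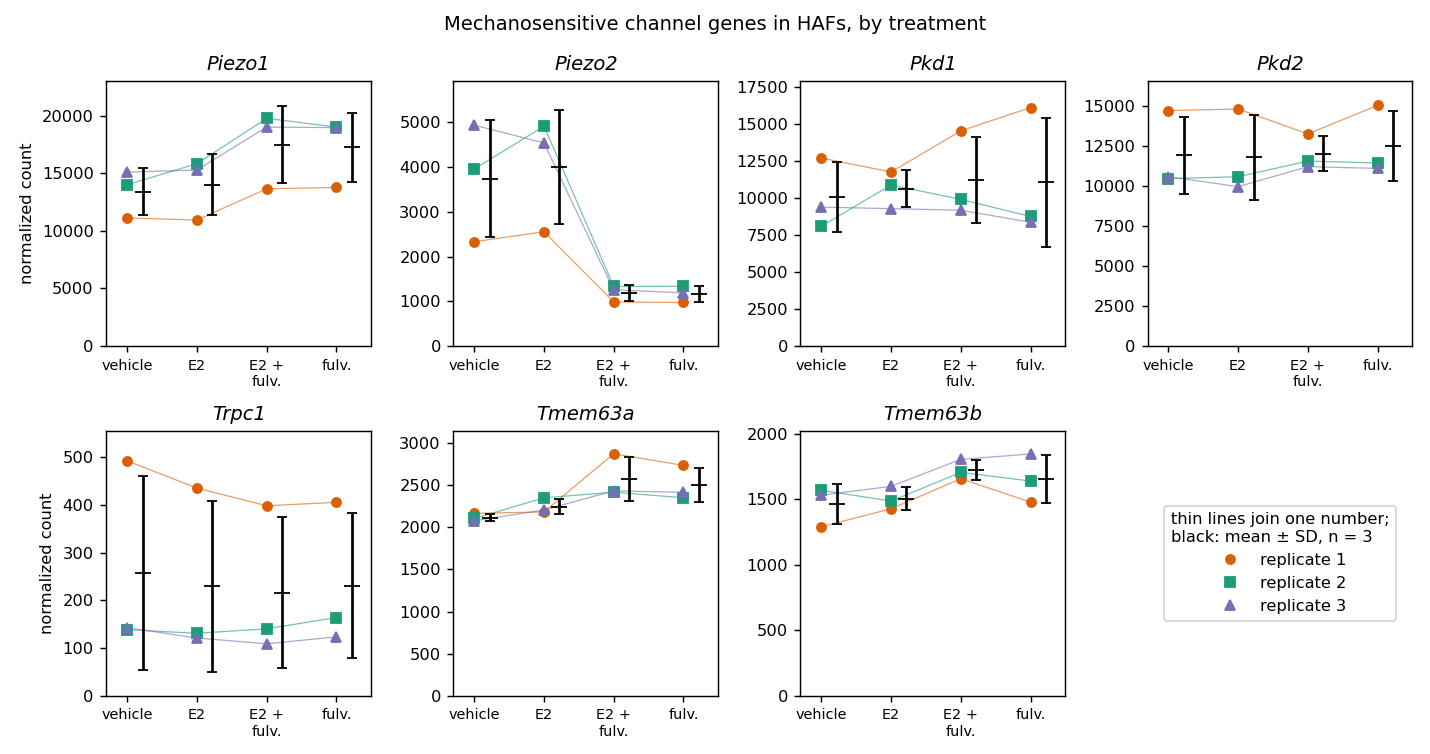
Normalized counts (vertical axes, from 0) of each member in the 12 samples, by treatment (horizontal axes). Points are samples, thin lines join samples with the same replicate number, and black bars give the mean ± SD of 3 samples. Piezo2 lies between 973 and 1335 in the 6 samples with fulvestrant and between 2330 and 4935 in the 6 without it.

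Piezo2 showed the largest treatment difference of the 7 genes. Vehicle samples had 2330, 3957 and 4935 normalized counts (3741 ± 1316, SD, n = 3) and E2 samples had 2554, 4911 and 4538 (4001 ± 1267). Samples with E2 plus fulvestrant had 984, 1331 and 1256 (1190 ± 183), and those with fulvestrant had 973, 1335 and 1190 (1166 ± 182). Each sample without fulvestrant was above each sample with it, while the pair of groups without fulvestrant overlapped, as did the pair with it.

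The comparison of E2 with E2 plus fulvestrant asks what changed when the receptor was blocked in the presence of E2. Piezo2 was 3.26-fold higher with E2 alone than with E2 plus fulvestrant. The log2 difference was 1.70 (SE 0.10, 95% interval 1.46 to 1.95, adjusted p = 0.000609 by limma with the replicate number as a block). The difference within replicates 1, 2 and 3 was 1.38, 1.88 and 1.85 on the log2 scale. Without the block the log2 difference was the same and the adjusted p was 0.16. In the comparison of fulvestrant with vehicle, which shares no sample with the first, Piezo2 fell by 1.63 on the log2 scale (SE 0.14, 95% interval -1.96 to -1.29, adjusted p = 0.00347 with the block and 0.341 without it). It was 3.09-fold lower with fulvestrant, with within-replicate differences of -1.26, -1.57 and -2.05.

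Piezo1 differed in the opposite direction and by less. Vehicle samples had 11129, 14019 and 15114 normalized counts (13420 ± 2059, SD, n = 3) and E2 samples had 10947, 15838 and 15292 (14026 ± 2680). Samples with E2 plus fulvestrant had 13661, 19781 and 19022 (17488 ± 3336), and those with fulvestrant had 13777, 19024 and 18977 (17259 ± 3016). The groups with and without fulvestrant overlapped, and replicate 1 was lowest in each group.

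Within each replicate number Piezo1 was higher with fulvestrant. The log2 difference of E2 minus E2 plus fulvestrant was -0.32 (SE 0.06, 95% interval -0.45 to -0.18, adjusted p = 0.0187 by limma with the block), and the within-replicate differences were -0.32, -0.32 and -0.31. The adjusted p was 0.973 without the block and 0.185 without replicate 3. For fulvestrant minus vehicle the log2 difference was 0.36 (SE 0.08, 95% interval 0.16 to 0.56, within replicates 0.31, 0.44 and 0.33), with an adjusted p of 0.0614 by limma that did not pass the threshold. It passed without replicate 1 (adjusted p = 0.0146) and when all 12 samples shared one fit (adjusted p = 0.00212). The adjusted p was 0.463 without replicate 2, 0.183 without replicate 3, 0.0858 on CPM, a common total per library, and 0.978 without the block.

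Genes with an adjusted p under 0.05 and a fold change over 1.2 were called. Across the 7 members, 2 were called in the comparison of E2 with E2 plus fulvestrant. Piezo2 was higher and Piezo1 lower with E2 alone than with E2 plus fulvestrant. Of all 13233 genes 8.68% were called, 4.07% higher and 4.6% lower with E2 alone. In fulvestrant against vehicle 1 member was called (Piezo2, lower), against 5.23% of all genes, of which 2.74% were higher and 2.49% lower. Without the block, 0 members were called in either comparison, against 0.0605% of all genes in the first and 0% in the second. When the values were rescaled to CPM the split of called genes in fulvestrant against vehicle moved from 362 higher and 330 lower to 299 and 416. In E2 against E2 plus fulvestrant it moved from 539 higher and 609 lower to 557 and 523. Piezo2 and Piezo1 kept their directions in both comparisons. In samples of bulk RNA, fewer cells of a type and less RNA per cell cannot be told apart.

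**Figure D2:**
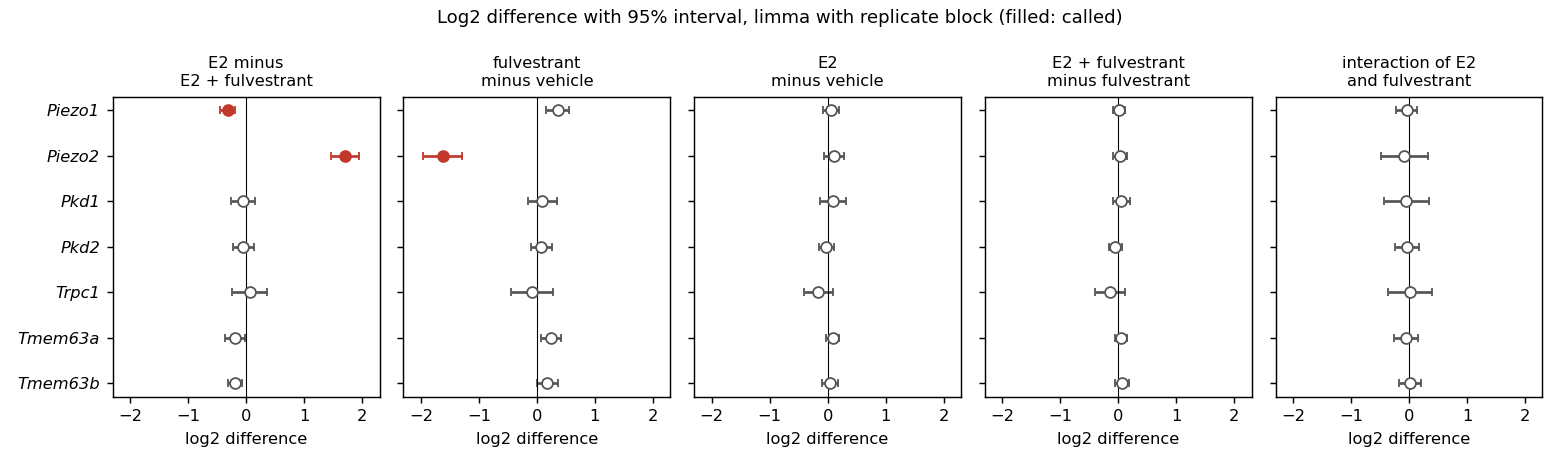
Log2 differences (horizontal axes) of each member (rows) with 95% intervals, from limma with the replicate number as a block, in 5 panels for the 4 pairwise comparisons and the interaction. Filled points passed an adjusted p of 0.05 and a fold change of 1.2. Piezo2 lies at 1.70 in the first panel and -1.63 in the second, Piezo1 at -0.32 and 0.36, and the points of the other members are unfilled.

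Per kb of exon, Piezo1 exceeded Piezo2 in each of the 12 samples, and the size of the gap differed by treatment. The ratio was 8.25, 6.12 and 5.29 in vehicle samples and 7.40, 5.57 and 5.82 in E2 samples. It was 24.0, 25.7 and 26.2 with E2 plus fulvestrant and 24.5, 24.6 and 27.5 with fulvestrant. Each ratio with fulvestrant was above each ratio without it, which follows from the counts given above and is not a separate result. The ratio of Tmem63a to Tmem63b stayed between 1.49 and 2.1 and that of Pkd1 to Pkd2 between 0.44 and 0.64.

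**Figure D3:**
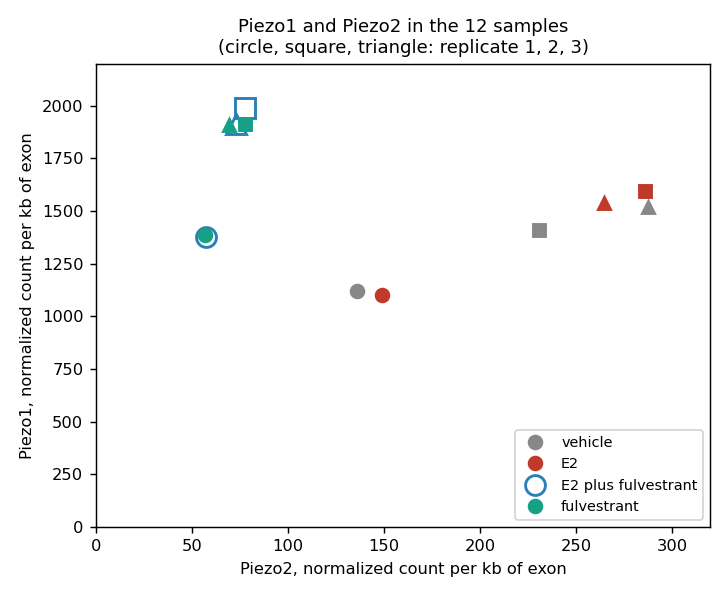
Piezo1 (vertical axis) against Piezo2 (horizontal axis), both in normalized counts per kb of exon, in the 12 samples coloured by group, with the symbol giving the replicate number. The 6 samples with fulvestrant lie at Piezo2 values of 56.7 to 77.8 and the others at 136 to 288, and within a replicate number the samples with fulvestrant lie higher on the Piezo1 axis.

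Tmem63a and Tmem63b, the osmotically gated channels, had higher values with fulvestrant that did not pass the test in any of the pairwise comparisons. Tmem63a had 2166, 2106 and 2078 normalized counts with vehicle (2117 ± 44.8, SD, n = 3), 2184, 2351 and 2207 with E2 (2247 ± 90.8), 2875, 2418 and 2434 with E2 plus fulvestrant (2575 ± 259) and 2736, 2352 and 2416 with fulvestrant (2501 ± 206). Its lowest value with fulvestrant alone exceeded the highest E2 value by under 1 count. The log2 difference was -0.19 for E2 minus E2 plus fulvestrant (95% interval -0.37 to -0.01, adjusted p = 0.157 by limma) and 0.24 for fulvestrant minus vehicle (0.07 to 0.41, adjusted p = 0.116). Within replicates 1, 2 and 3 the first was -0.40, -0.04 and -0.14, and it was -0.09 without replicate 1.

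Tmem63b had 1289, 1567 and 1530 normalized counts with vehicle (1462 ± 151, SD, n = 3), 1426, 1485 and 1597 with E2 (1503 ± 86.8), 1655, 1704 and 1803 with E2 plus fulvestrant (1721 ± 75.3) and 1477, 1638 and 1844 with fulvestrant (1653 ± 184). The groups with E2 and with E2 plus fulvestrant did not overlap, and those with vehicle and fulvestrant did. The log2 difference was -0.20 for E2 minus E2 plus fulvestrant (95% interval -0.32 to -0.07, adjusted p = 0.0593 by limma) and 0.18 for fulvestrant minus vehicle (-0.00 to 0.36, adjusted p = 0.239).

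Counted by groups that do not overlap, Piezo2 was higher and Tmem63a and Tmem63b were lower in the E2 group than in the group with both agents, 3 of 7 members against 12.5% of all genes. In fulvestrant against vehicle, 2 members did not overlap (Tmem63a higher, Piezo2 lower), against 11.1% of all genes.

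The polycystins differed between replicate numbers more than between treatments. Pkd1, the receptor-like subunit, had 12700, 8092 and 9386 normalized counts with vehicle (10059 ± 2377, SD, n = 3) and 11760, 10886 and 9283 with E2 (10643 ± 1256). It had 14543, 9908 and 9175 with E2 plus fulvestrant (11209 ± 2910) and 16109, 8756 and 8363 with fulvestrant (11076 ± 4363). Replicate 1 was highest in each group, and the groups overlapped.

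Pkd2, the channel subunit, had 14693, 10442 and 10567 normalized counts with vehicle (11901 ± 2419, SD, n = 3), 14788, 10565 and 9943 with E2 (11765 ± 2636), 13235, 11540 and 11193 with E2 plus fulvestrant (11989 ± 1093) and 15015, 11421 and 11083 with fulvestrant (12506 ± 2179). For E2 minus E2 plus fulvestrant the log2 difference was -0.05 for Pkd1 (95% interval -0.26 to 0.16, adjusted p = 0.754 by limma) and -0.05 for Pkd2 (-0.23 to 0.14, adjusted p = 0.745). For fulvestrant minus vehicle it was 0.10 for Pkd1 (-0.16 to 0.35) and 0.08 for Pkd2 (-0.11 to 0.26). Neither was called, and the upper bound for Pkd1 in the second comparison, 0.35, was close to the 0.36 of Piezo1.

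Trpc1 had 492, 138 and 143 normalized counts with vehicle (258 ± 203, SD, n = 3), 435, 131 and 121 with E2 (229 ± 179), 398, 140 and 109 with E2 plus fulvestrant (216 ± 159) and 405, 164 and 123 with fulvestrant (231 ± 152). Replicate 1 was 2.84- to 3.48-fold above the mean of the other replicates in each of the 4 groups. The log2 difference between treatments was 0.06 for E2 minus E2 plus fulvestrant (95% interval -0.24 to 0.36, adjusted p = 0.801 by limma) and -0.08 for fulvestrant minus vehicle (-0.44 to 0.28, adjusted p = 0.798).

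The replicate number marked the members to different degrees. Of the variance of the log2 values over 12 samples, it accounted for 97.6% in Trpc1, 89.1% in Pkd2, 78.0% in Pkd1, 61.4% in Piezo1, 39.8% in Tmem63b, 13.9% in Tmem63a and 11.4% in Piezo2, against 70.0% over all genes. Treatment accounted for 86.0% in Piezo2, 66.8% in Tmem63a, 48.5% in Tmem63b and 37.0% in Piezo1. It accounted for 3.20% in Pkd1, 3.08% in Pkd2 and 1.09% in Trpc1, and for 18.2% over all genes. Both values over all genes pool the sums of squares of every gene. They weigh the most variable genes most and are not the share of a typical gene. Against the mean of the other replicates, replicate 1 was lower in each group for Piezo1 (log2 difference -0.51 to -0.39) and Piezo2 (-0.92 to -0.37) and higher for Pkd1 (0.23 to 0.91) and Pkd2 (0.22 to 0.53).

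E2 compared with vehicle asks what the added hormone did in cells without fulvestrant. No member was called, against 0.431% of all genes. None had an unadjusted p by limma under 0.05, against 14.5% of all genes. Without replicate 3 Piezo2 had one (log2 difference 0.22), against 7.9% of all genes. The log2 difference was 0.11 for Piezo2 (95% interval -0.07 to 0.28, adjusted p = 0.551 by limma; 0.13, 0.31 and -0.12 within replicates) and 0.06 for Piezo1 (-0.09 to 0.20, adjusted p = 0.704). Tmem63a was the one member whose groups did not overlap, against 5.19% of all genes, with a log2 difference of 0.09 (-0.03 to 0.20, adjusted p = 0.472). For Trpc1 it was -0.16 (-0.42 to 0.09, adjusted p = 0.520).

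E2 plus fulvestrant compared with fulvestrant asks whether E2 had an effect once the receptor was blocked. By limma 0 of 13233 genes were called and 516 had an unadjusted p under 0.05, none of them a member, and no member's groups were apart, against 2.42% of all genes. The log2 difference was 0.03 for Piezo2 (95% interval -0.10 to 0.15) and 0.02 for Piezo1 (-0.09 to 0.12). Without the block the interval for Piezo1 was -0.48 to 0.51. The interaction of E2 and fulvestrant was also called by limma for 0 genes, with 501 at an unadjusted p under 0.05 and again no member among them. It was -0.08 for Piezo2 (-0.49 to 0.33) and -0.04 for Piezo1 (-0.22 to 0.14).

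With no interaction called, the effect of fulvestrant was also averaged over cells with and without E2, a comparison added after the values were seen. Piezo2 fell by 1.66 on the log2 scale (95% interval -1.87 to -1.46, adjusted p = 1.29e-06 by limma with the block and 0.00321 without it). Piezo1 was higher by 0.34 (0.25 to 0.43, adjusted p = 0.000155 with the block and 0.348 without it). These 2 were called, against 15.5% of all genes (7.71% higher, 7.81% lower), and without the block Piezo2 alone was, against 2.34%. Of all genes called with the block 49.7% were higher, and on CPM 42.3% were. Tmem63a (0.22, adjusted p = 0.00589) and Tmem63b (0.19, adjusted p = 0.00733) had adjusted p-values below 0.05, but their fold changes of 1.16 and 1.14 were under 1.2. Tmem63a was called without replicate 2 (0.27, adjusted p = 0.0219 by limma) and was at 0.14 without replicate 1. Pkd1 (0.07), Pkd2 (0.06) and Trpc1 (-0.07) were not called.

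For each member the genes whose log2 values ran most alike over the 12 samples, after centring by replicate number, were found as a description. For Piezo2 they were Lum (Pearson r = 0.992), which encodes the collagen-binding proteoglycan lumican, Adam22 (0.986) and Hgf, hepatocyte growth factor (0.984). For Piezo1 they were Stk40 (0.982), Eda (0.981) and Csnk1g3 (0.980), a casein kinase gene. The genes nearest to Tmem63a were St13 (0.982), Cnn3 (0.979) and Anxa7 (0.978), and those nearest to Tmem63b were Fdx1 (0.968), Glmp (0.968) and Plscr1 (0.963). Sptan1 (0.971), Sppl2a (0.958) and Kif1b (0.949) were nearest to Pkd1, Fli1 (0.958), Zfp697 (0.929) and Pdgfc (0.915) to Pkd2, and Zfp626 (0.961), Pgbd1 (0.902) and 1810014B01Rik (0.884) to Trpc1. The points share the same 12 libraries, and the highest of 13233 values is given for each.

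Levels of some cell type markers also differed between groups. Summed normalized counts of the 8 fibroblast markers were 318320 to 409682 with vehicle, 351044 to 440285 with E2, 254320 to 312128 with E2 plus fulvestrant and 239002 to 339110 with fulvestrant, apart for E2 and E2 plus fulvestrant and overlapping for vehicle and fulvestrant. The sum is weighted to its most abundant genes and does not describe each marker. Medians over the samples were 127768 for Col1a2, 74681 for Dcn and 50917 for Col1a1, against 436 for Thy1 and 234 for Esr1. Lum itself ranged from 622 to 3942 over the samples. Summed pericyte markers Cspg4 and Mcam overlapped between all groups. Their sums were 2154 to 3285 with vehicle, 2214 to 3382 with E2, 2028 to 4345 with E2 plus fulvestrant and 1961 to 4235 with fulvestrant. The endothelial marker Tek also overlapped between all groups. Summed Cd68 and Cd14, which macrophages express, were 148 to 165 with vehicle, 106 to 138 with E2, 167 to 210 with E2 plus fulvestrant and 179 to 201 with fulvestrant, while Ptprc, Adgre1 and Csf1r were not listed. The part of these shifts in the Piezo1 and Piezo2 values was not tested.

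The wider machinery was described from 6 lists holding 101 genes, of which 78 were listed in the table. The counts of calls below stand against 8.68% of all genes called in E2 against E2 plus fulvestrant and 5.23% in fulvestrant against vehicle. They come from the fit with the replicate block, and without the block all 14 calls of the list genes in these 2 comparisons were lost. Among other force-gated, stretch-linked or swelling-linked channels, 11 of 27 were listed. In E2 against E2 plus fulvestrant 1 was called higher and 1 lower, against 4.07% and 4.6% of all genes (median log2 difference -0.09, against -0.01 over all genes). In fulvestrant against vehicle 2 were called higher and 1 lower, against 2.74% and 2.49% (median 0.09, against 0.01). Asic1, an acid-sensing cation channel, averaged 135 normalized counts with vehicle, 151 with E2, 81.0 with E2 plus fulvestrant and 76.8 with fulvestrant. Its log2 difference was 0.86 (adjusted p = 0.0184 by limma) in the first comparison and -0.81 (adjusted p = 0.0368) in the second. Lrrc8a, the core subunit of volume-regulated anion channels, averaged 1706, 1711, 2347 and 2361 in the same order and was called in both, at -0.46 (adjusted p = 0.00357) and 0.47 (adjusted p = 0.0202). Trpv4, a channel opened by swelling, was called in the second alone (1.03, adjusted p = 0.0482), with -0.27 (adjusted p = 0.395) in the first and means of 37.4, 50.9, 61.6 and 76.5.

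Among store-operated calcium entry and caveolae genes, 15 of 15 were listed. In E2 against E2 plus fulvestrant 1 was called higher and 3 lower (4.07% and 4.6% of all genes were), with a median of -0.04. Cav1, the caveolin that coats caveolae, was higher with E2 alone than with E2 plus fulvestrant (log2 difference 0.43, adjusted p = 0.00356 by limma). Its means were 3251 for vehicle, 4224 for E2, 3142 for E2 plus fulvestrant and 3121 for fulvestrant. Its difference was 0.03 in fulvestrant against vehicle (adjusted p = 0.928) and 0.45 in E2 against vehicle (adjusted p = 0.0772, not called). The 3 lower with E2 alone were Stim1, Itpr3 and Homer1. Stim1, the calcium sensor of the endoplasmic reticulum, was at -0.37 (adjusted p = 0.0203). Itpr3, a calcium release channel, was at -0.34 (adjusted p = 0.0409) and Homer1, a scaffold protein, at -0.32 (adjusted p = 0.0385). In E2 against vehicle the 3 were at 0.05, 0.02 and 0.07 and were not called. In fulvestrant against vehicle Homer1 was called higher (0.40, adjusted p = 0.0490), with 0.37 for Stim1 (adjusted p = 0.0787) and 0.30 for Itpr3 (adjusted p = 0.126), which were 0.24 and 0.18 without replicate 1 (median of the list 0.11).

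Of the calcium, calcineurin and calpain effectors 19 of 20 were listed. Nfatc1, a transcription factor that calcineurin activates, was called lower in E2 against E2 plus fulvestrant (-0.51, adjusted p = 0.0179 by limma) and higher with fulvestrant than with vehicle (0.54, adjusted p = 0.0312). Camk2d, a calmodulin-dependent kinase, was called in the first (-0.55, adjusted p = 0.0493) and had 0.61 in the second (adjusted p = 0.0999). Without replicate 1 these values were -0.33 and 0.31. The call in the first was lost on CPM (adjusted p = 0.0605), with 12 samples in one fit (0.0556) and without replicate 3 (0.12). The medians of the list were -0.03 and 0.09.

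The remaining lists hold the partners of the Piezo channels and of the polycystins. Of 8 genes whose proteins bind or tune Piezo channels, 5 were listed and 0 called in either comparison (medians -0.05 and 0.10). Of 13 polycystin maturation genes and partners, 10 were listed and 1 was called, Sec61b, a subunit of the protein translocation channel. It was higher in E2 against E2 plus fulvestrant (0.29, adjusted p = 0.0335 by limma). Its difference was -0.02 in fulvestrant against vehicle (adjusted p = 0.943) and 0.26 in E2 against vehicle (adjusted p = 0.167, not called). Of 18 primary cilium assembly genes 18 were listed and 0 called (medians 0.08 and -0.17). In E2 against vehicle, in E2 plus fulvestrant against fulvestrant and in the interaction, 0 genes of the 6 lists were called.

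**Figure D4:**
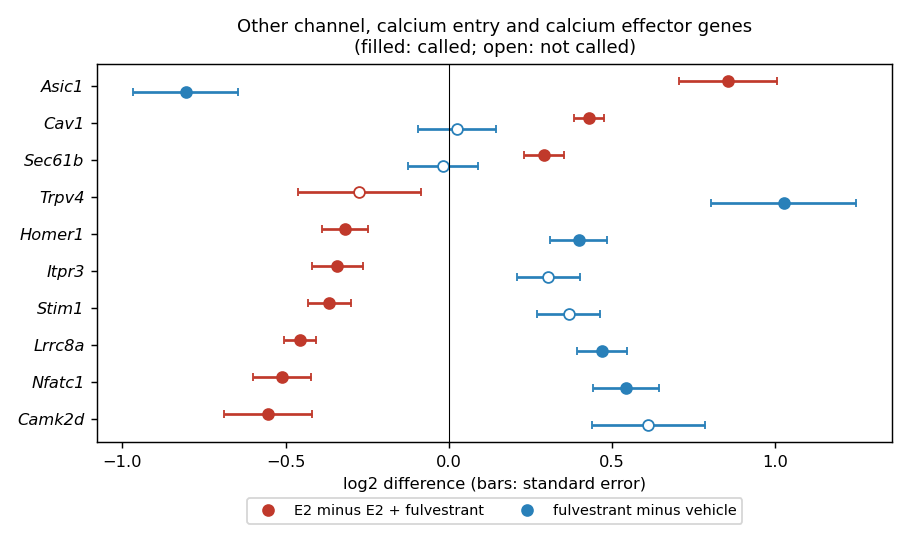
Log2 differences (horizontal axis, bars give the standard error) of the 10 list genes that were called in at least one of the 4 pairwise comparisons or the interaction (rows), for E2 minus E2 plus fulvestrant and for fulvestrant minus vehicle. Filled points were called. Most genes lie on opposite sides of 0 in the 2 comparisons, such as Lrrc8a at -0.46 and 0.47, whereas Cav1 lies at 0.43 and 0.03.

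In the averaged effect of fulvestrant, with 15.5% of all genes called, 4 of the other channels were called higher and 1 lower, 1 Piezo-binding gene (Mdfic) and 1 cilium gene (Dync2h1) lower, 3 calcium entry and caveolae genes higher and 2 lower, 2 effectors higher and 1 lower, and no polycystin partner. Beyond the genes named above these were Kcnk2 and Tmem120a (higher) and Itpr1, Cavin2 and Rcan2 (lower), which, like Mdfic and Dync2h1, are named after their values were seen. Without the block 2 of the other channels, 1 calcium entry and caveolae gene and 1 effector were called, all higher, against 2.34% of all genes.

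On CPM the calls of Itpr3 in the first comparison (adjusted p = 0.0537 by limma) and of Trpv4 (0.0548) and Homer1 (0.0658) in the second were lost, as was that of Asic1 in the second among genes with a mean of at least 100 (0.0536). The calls of the list genes also varied with single replicate numbers. Lrrc8a and Cav1 in E2 against E2 plus fulvestrant kept their calls without any one replicate number, and no list gene called in fulvestrant against vehicle did so, each falling short without replicate 2 and without replicate 3. Piezo2 kept its call in both comparisons without any one replicate number, with log2 differences of 1.61 to 1.87 in the first and -1.81 to -1.41 in the second.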

How the data were processed

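The authors used Trimmomatic 0.39 to trim reads, SortMeRNA to take out ribosomal RNA, STAR 2.5.2 to align to mm10 and HTSeq 0.13.5 to count reads by strand. The authors left out counts under 10 and applied median-of-ratios normalization (DESeq2 1.37). They also named batch adjustment, without naming the batches. What the authors deposited is a normalized count (a signal, not a raw count) for each gene in each sample. Multiplied by a factor for the sample, 100.0% were whole reads within 0.01, the fewest being 10 reads, and the smallest value was 8.27. Symbols, exon lengths and positions came from GENCODE M21 (13149 of 13233 genes had a symbol).

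For each comparison the 2 groups were fitted in limma 3.58.1 (R 4.3.3; lmFit, eBayes with trend) on log2(value + 1), two-sided, with the replicate number as a block and Benjamini-Hochberg adjustment over 13233 genes. Log2 fold changes are on that scale. Genes with an adjusted p under 0.05 were called where the fold change also exceeded 1.2. For the interaction 12 samples were fitted together. The block was part of the main fit because samples were to be paired by number, and the 18 same-numbered pairs had deviations from their group means correlated at 0.63 to 0.923, each over 0.1, against -0.862 to 0.792 for 36 pairs with different numbers, of which 12 were over 0.1. The script was tested on simulated data. The members, lists and markers were chosen with earlier results of these data known. All members were named, and of each list the genes called in at least one of the 5 tests, up to the 4 with the largest change in E2 against E2 plus fulvestrant; for each member, the 3 genes most correlated with it. Alternatives were a pseudocount of 10, a mean of at least 100, no block, 12 samples in one fit, CPM and leaving out each replicate number in all groups. ChIP-Seq and ATAC-seq were not used here. One further marker list is not reported here.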

Additional observations from a re-analysis of the deposited data

How the results depend on the processing

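The log2 differences of the 7 members (42 values over 6 tests) were compared with 322 values under alternatives. With all samples kept, 191 of 196 had the same direction and the same side of the threshold, 4 lost a call (all without the replicate block) and 1 gained one. Without the replicate block the calls fell to 8 genes for E2 against E2 plus fulvestrant, 0 for fulvestrant against vehicle, 0 for E2 against vehicle and 310 for the averaged effect, and to 0, 0 and 1 members in the first, second and last. At an unadjusted p under 0.05, that limma fit held 810, 706 and 132 genes in the first 3 of these. With 12 samples in one fit, fulvestrant against vehicle had 1648 calls, 2 of them members, and E2 against vehicle had 10. The cause was not tested.

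Without one replicate number, calls ranged from 351 to 1956 genes and 1 to 2 members for E2 against E2 plus fulvestrant, 20 to 2208 and 1 to 2 for fulvestrant against vehicle, 6 to 279 genes for E2 against vehicle, 0 to 147 for E2 plus fulvestrant against fulvestrant, 0 to 11 for the interaction, and 1335 to 2332 genes and 2 to 3 members for the averaged effect. Log2 differences near 0 turned: for E2 against E2 plus fulvestrant Pkd1 (-0.14 to 0.076) and Pkd2 (-0.15 to 0.016); for fulvestrant against vehicle Pkd1 (-0.026 to 0.23), Trpc1 (-0.24 to 0.016), Sec61b (-0.16 to 0.071) and Cav1 (-0.095 to 0.21, and -0.014 on CPM). For E2 against vehicle Piezo1 (-0.0034 to 0.097), Pkd1 (-0.063 to 0.21), Pkd2 (-0.039 to 0.013) and Tmem63b (-0.0078 to 0.10) turned, for E2 plus fulvestrant against fulvestrant Piezo1 (-0.0044 to 0.030), Pkd1 (-0.0069 to 0.16) and Pkd2 (-0.084 to 0.015), for the interaction Piezo2 (-0.22 to 0.041), Pkd1 (-0.14 to 0.057), Pkd2 (-0.097 to 0.050), Trpc1 (-0.042 to 0.10) and Tmem63b (-0.038 to 0.077), and for the averaged effect Pkd1 (-0.051 to 0.16). None of these was called with all samples. Of the 158 alternative values of the list genes, 107 stayed the same, 42 lost a call (14 of them, all the list calls, without the block), 4 gained one and 5 turned.

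The planned edgeR and DESeq2 fits were not run, so no count test stands beside these results. Trpc1, at 76 to 446 reads per sample, has the least depth of the members.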
